A study of Rattus norvegicus with 9 samples.

Results

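Transcripts of 10 genes of mitochondrial fission and fusion were followed in the superior mesenteric artery (SMA) of the rat, the vessel that feeds most of the small intestine. The genes were taken by symbol from the count table, and 10 of its 37203 gene symbols matched the list. They were Dnm1l, which encodes Drp1, then Fis1, Mff, Mief1, Mief2, Inf2, Gdap1, Mfn1, Mfn2 and Opa1. All 10 passed the filter on low counts, which left 15482 genes for testing. The study asked how pathways linked to mitochondria move through the phases of ischemic injury.

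The 9 libraries came from 8-week-old Sprague-Dawley rats with no genetic change named in the labels. There were 3 libraries from normal rats, 3 after 1 h of ischemia and 3 after 4 h of ischemia. Ischemia was produced by bleeding rats under pentobarbital through a catheter in the femoral artery, so it was a hemorrhage of the whole animal and not a clamp on this vessel. Per the series description each group held 3 rats, and ischemic rats were killed before the vessel was taken. The methods also speak of 3 individuals for all 9 samples, and no label ties a library to an animal, so the p-values below measure the spread between these samples.

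Mitochondria divide and join through large GTPases of the dynamin family. Drp1 is a cytosolic GTPase that is recruited to the outer membrane by Mff, Fis1 and the MiD proteins encoded by Mief1 and Mief2, forms a ring there and constricts the organelle, while the formin INF2 builds actin at contacts with the endoplasmic reticulum before the ring closes. Joining uses the mitofusins Mfn1 and Mfn2 on the outer membrane and OPA1 on the inner membrane, and in vascular smooth muscle the balance of the opposed processes is known to shift with cell growth and with stress.

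The start regions of Dnm1l, Opa1 and Inf2 are shown because, of the 4 genes with an unadjusted p under 0.05 at 1 h described below, these 3 had an entry in the RefSeq promoter table. Each holds 250 bases before and 50 bases after an annotated start, 300 in all, on build GRCr8, read 5′ to 3′ on the strand of the gene. Capitals mark the Sp core GGGCGG on either strand and the E-box CACGTG. The Dnm1l window is chr11:98085147-98085446 on the plus strand, the Opa1 window is chr11:84689851-84690150 on the minus strand and the Inf2 window is chr6:137470036-137470335 on the plus strand. The Dnm1l gene begins at chr11:98084049, so its window lies at a start inside the gene and does not cover the gene's first base. The Opa1 and Inf2 windows cover the outer start of their genes.
Dnm1l: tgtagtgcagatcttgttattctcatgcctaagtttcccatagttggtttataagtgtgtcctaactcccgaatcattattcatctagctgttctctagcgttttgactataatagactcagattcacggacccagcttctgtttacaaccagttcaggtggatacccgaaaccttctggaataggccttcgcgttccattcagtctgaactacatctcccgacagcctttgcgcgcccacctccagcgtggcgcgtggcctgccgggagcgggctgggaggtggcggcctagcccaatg
Opa1: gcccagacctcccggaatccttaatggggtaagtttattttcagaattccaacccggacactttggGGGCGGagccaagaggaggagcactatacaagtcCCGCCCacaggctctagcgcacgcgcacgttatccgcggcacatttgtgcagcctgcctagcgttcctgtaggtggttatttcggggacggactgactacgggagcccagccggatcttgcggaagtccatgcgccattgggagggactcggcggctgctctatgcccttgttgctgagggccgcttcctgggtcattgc
Inf2: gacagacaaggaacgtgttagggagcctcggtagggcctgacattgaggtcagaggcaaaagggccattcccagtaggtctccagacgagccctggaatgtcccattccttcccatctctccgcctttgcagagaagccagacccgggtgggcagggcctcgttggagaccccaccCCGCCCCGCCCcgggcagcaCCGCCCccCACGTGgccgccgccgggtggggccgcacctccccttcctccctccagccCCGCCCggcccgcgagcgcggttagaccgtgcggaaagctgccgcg

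4 motifs were searched on both strands, GCGCATGCG for NRF-1, GGGCGG for Sp factors, CCGGAAG for ETS factors and CACGTG for the E-box. The NRF-1 core was found in 1.52% of the 33469 promoter windows of the table, the Sp core in 33.1%, the ETS core in 8.75% and the E-box in 6.42%. The Dnm1l window held 0 matches to any of them, the Opa1 window held 2 Sp cores, and the Inf2 window held 4 Sp cores, of which a pair share a base, and 1 E-box. CpG pairs numbered 15 in the Dnm1l window, 20 in Opa1 and 25 in Inf2, against a median of 7 over all windows. These matches describe letters in a window and were not tied to any value below. 8 of the 10 genes had a window in the table, and Gdap1 and Mfn2 had none.

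Total counts per library lay between 13114273 and 15504240, and 1 CPM (the count of a gene scaled by library size), on library sizes scaled by the TMM method of edgeR, stood for 12.1 to 17.9 counts. Artery markers were present in every library, with Myh11, the smooth muscle myosin, between 4690 and 23500 CPM. The libraries differed far more in genes of sympathetic neurons. Dbh, the enzyme that makes noradrenaline, had 2072, 0 and 900 counts in normal replicates 1 to 3, 27714, 3375 and 30376 counts at 1 h, and 8, 3 and 30912 counts at 4 h. The summed level of 23 sympathetic neuron genes followed it, at 793, 49.3 and 489 CPM in normal rats, 11100, 1210 and 11200 CPM at 1 h, and 60.9, 65.2 and 11200 CPM at 4 h. Replicates 1 and 3 at 1 h and replicate 3 at 4 h thus stood apart from the other 6 libraries, and 2 of those 3 libraries were in one group. Chromaffin genes were highest in the same libraries, at 440 to 537 CPM summed against 4.89 to 51.9 CPM in the others, but Pnmt, which makes adrenaline, was at 0 to 1.49 CPM throughout. Ucp1, the uncoupling protein of brown fat, had 1272 and 46 counts in the neuron-rich pair of the 1 h group, 555 counts in the neuron-rich library of the 4 h group and 0 or 1 counts in each of the other 6. Cidea and Cox8b of the same fat list did not follow this split. Cidea was at 64.7, 30.6 and 27 CPM in replicates 1 to 3 at 1 h and at 92.2, 82.7 and 46.7 CPM at 4 h. Cox8b had 39, 7 and 0 counts at 1 h and 0, 0 and 1 at 4 h. The summed fat genes divided the libraries less cleanly than Ucp1, at 1860, 2140 and 1010 CPM in the 3 neuron-rich libraries and 390 to 2370 CPM in the others. The part of fat in the levels below was not tested. Smooth muscle genes were at 13700 to 27300 CPM summed in the 3 neuron-rich libraries, at 11800 CPM in normal replicate 1 and at 50300 to 73100 CPM in the other 5. Schwann cell genes ran from 256 to 4820 CPM summed and had their highest value in normal replicate 1. Because these are bulk libraries, fewer cells of a type and less RNA per cell cannot be told apart.

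No fission or fusion gene was called at 1 h. Calls required a fold change over 1.5 and, by edgeR's quasi-likelihood test with Benjamini-Hochberg adjustment over all 15482 genes, an adjusted p under 0.05. At 1 h of ischemia 0 of the 10 genes reached this, against 0.0581% of all genes. At an unadjusted p under 0.05 there were 4 of 10, with Dnm1l, Gdap1 and Opa1 higher and Inf2 lower, where 16.7% of all genes passed. DESeq2 also called 0 of the 10, where it called 702 of all genes. It had 5 of the 10 at an unadjusted p under 0.05. Its share of all genes at that level was not counted, so the 5 cannot be read as a result about these genes. The count of 4 fell to 0 when normal replicate 2 or replicate 1 at 1 h was left out, to 1 without replicate 3 at 1 h, to 2 without normal replicate 1 or normal replicate 3, and to 1 (Inf2) with library size as the only scaling. Over the whole table, 2578 of 15482 genes had an unadjusted p under 0.05 in the chosen fit. Dropping normal replicate 2 left 1527 of 15967, and dropping normal replicate 3 left 1793 of 15932. Dropping replicate 1 of the 1 h group left 1788 of 15878, and dropping its replicate 3 left 1267 of 15752. Scaling by library size alone gave 2153 of 15482. Only the fit lacking normal replicate 1 held more, 2695 of 15744. Elsewhere the fall was shared by all genes. In 3 genes (Inf2, Gdap1 and Opa1) the 3 libraries at 1 h did not overlap those of normal rats, which held for 26.3% of all genes. The median log2 change of the 10 genes was 0.27, beside a median of -0.01 over all genes.

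No member was called at 4 h either, where 0.0904% of all genes were called by the same test. At an unadjusted p under 0.05 there were 0 of 10 by edgeR, where 12.4% of all genes passed. DESeq2 called none of the 10, where it called 606 of all genes. It had 1 of 10 at an unadjusted p under 0.05. Its share of all genes at that level was not counted, so that count has nothing to be set against. Only in Mff did the 4 h libraries not overlap the normal ones, against 18.7% of all genes. The margin was from 0.657 CPM (9 counts) in normal replicate 2 to 0.661 CPM (8 counts) in replicate 1 at 4 h. The raw counts of Mff overlapped. The median log2 change of the 10 genes was 0.22, beside 0.03 over all genes. Both comparisons share the same 3 normal libraries. Between 4 h and 1 h, 0 of the 10 genes were called by edgeR or DESeq2, 0 had an unadjusted p under 0.05 by either tool and none had groups that did not overlap. With all 9 libraries, 0% of all genes were called there by edgeR, 2.58% had an unadjusted p under 0.05 and 6.24% did not overlap. Without replicate 3 at 4 h, 3 of the 10 genes had an unadjusted p under 0.05 (Fis1, Gdap1 and Inf2), with none called. In that fit 3295 of 15945 genes had an unadjusted p under 0.05, against 400 of 15482 with all 9 libraries.

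**Figure D1:**
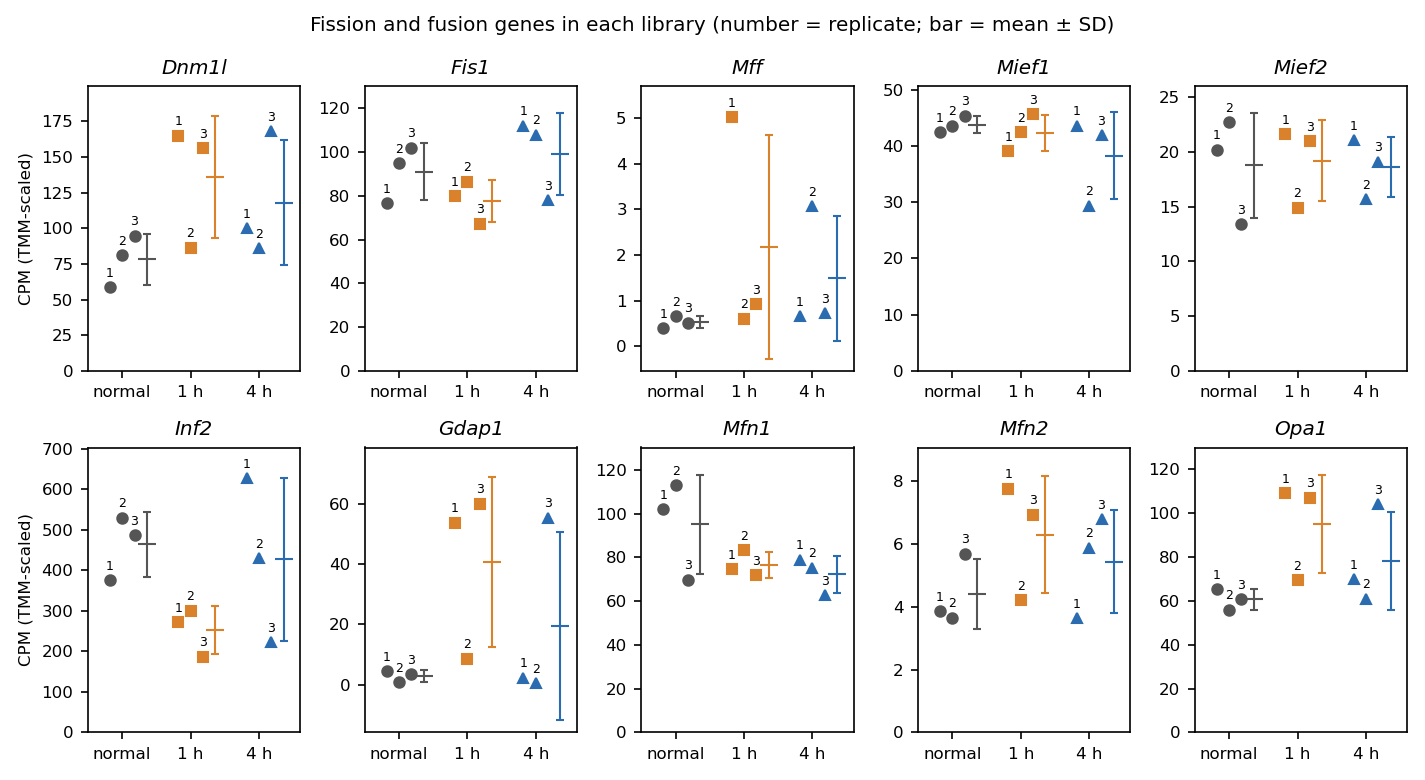
Level of each of the 10 genes in CPM on TMM-scaled library sizes (vertical axis) in 3 normal, 3 1 h and 3 4 h libraries, where each numbered point is 1 library and the bar beside it is the mean ± SD, which for Mff and Gdap1 reaches below 0. Dnm1l, Gdap1 and Opa1 are high in replicates 1 and 3 at 1 h and replicate 3 at 4 h, and Inf2 is low there.

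Dnm1l, the fission GTPase itself, was at 58.6, 81.0 and 94.7 CPM in normal replicates 1 to 3, at 165, 86.4 and 156 CPM at 1 h and at 100, 86.2 and 168 CPM at 4 h. The 3 libraries rich in neuron genes held the 3 highest values, while replicate 2 at 1 h and replicate 2 at 4 h lay inside the normal range. The group means were 78.1 ± 18.2, 136 ± 42.9 and 118 ± 44.0 CPM (SD, n = 3 each). At 1 h the log2 change was 0.80 ± 0.35 (SE) with a 95% interval of 0 to 1.59, an unadjusted p of 0.0491 and an adjusted p of 0.298 by edgeR. At 4 h it was 0.60 ± 0.35 with an interval of -0.19 to 1.39 and an adjusted p of 0.518 in the same test. Without the 3 libraries over 1000 CPM of Dbh, a choice made after the data were seen, the log2 change of Dnm1l was 0.15 at 1 h and 0.27 at 4 h. That leaves replicate 2 alone at 1 h, which the fit assumes to vary like the other groups.

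Among the receptors and adaptors of Drp1, Fis1 anchors in the outer membrane by its tail. It was at 76.6, 95 and 102 CPM in normal rats, at 79.7, 86.4 and 67.2 CPM at 1 h and at 112, 108 and 77.9 CPM at 4 h. The 3 groups overlapped, and the library with the lowest value, replicate 3 at 1 h, was one of those rich in neuron genes. Its log2 change was -0.23 ± 0.20 at 1 h, with an interval of -0.69 to 0.23, and 0.12 ± 0.20 at 4 h, with an interval of -0.34 to 0.59.

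Mff, the receptor held to recruit most Drp1, was barely counted in this table. It had 7, 9 and 7 counts in normal rats, 75, 9 and 15 counts at 1 h and 8, 37 and 11 counts at 4 h, which is 0.392 to 5.02 CPM. The high values came from replicate 1 at 1 h and replicate 2 at 4 h, and only the former was rich in neuron genes. Mff passed the low-count filter through few libraries, so its differences rest on them. The log2 change was 2.05 ± 0.96 at 1 h, with an interval of -0.14 to 4.24, and 1.49 ± 0.95 at 4 h, with an interval of -0.69 to 3.68. It was 0.54 at 1 h without replicate 1 of that group and 0.41 at 4 h without replicate 2 of that group. With so few counts a change of Mff was not resolved, and the reason for its low counts was not tested.

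Mief1 and Mief2 encode the MiD proteins, outer membrane adaptors that hold Drp1. Mief1 was at 42.4, 43.6 and 45.4 CPM in normal rats, 39.1, 42.4 and 45.6 CPM at 1 h and 43.6, 29.4 and 41.9 CPM at 4 h. All but replicate 2 at 4 h lay within 39.1 to 45.6 CPM, which made Mief1 the steadiest of the 10 genes in normal rats (43.8 ± 1.49 CPM). Mief2 was at 20.2, 22.7 and 13.4 CPM in normal rats, 21.6, 14.9 and 21.0 CPM at 1 h and 21.1, 15.7 and 19.1 CPM at 4 h. The groups overlapped in both genes. The 95% intervals at 1 h were -0.46 to 0.37 for Mief1 and -0.56 to 0.62 for Mief2 on the log2 scale, and at 4 h they were -0.61 to 0.22 and -0.60 to 0.58.

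Inf2, the formin that builds actin for constriction, showed the clearest lower values at 1 h. It was at 375, 530 and 486 CPM in normal rats, at 272, 300 and 187 CPM at 1 h and at 628, 430 and 223 CPM at 4 h. All 3 libraries at 1 h lay below all 3 normal ones, and at 4 h only the library rich in neuron genes lay below the normal range. The means were 464 ± 79.7, 253 ± 59.2 and 427 ± 202 CPM. The log2 change at 1 h was -0.88 ± 0.38, with an interval of -1.75 to 0, an unadjusted p of 0.0495 and an adjusted p of 0.3 by edgeR. At 4 h it was -0.12 ± 0.38, with an interval of -0.99 to 0.75, and between 4 h and 1 h it was 0.76 ± 0.38, with an interval of -0.12 to 1.63 and an edgeR adjusted p of 0.856. Without the 3 libraries over 1000 CPM of Dbh it was -0.62 at 1 h and 0.20 at 4 h. Smooth muscle genes were also low in those 3 libraries, and their part in the Inf2 values was not tested.

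Gdap1 encodes an outer membrane protein of neurons that promotes fission and is mutated in an inherited neuropathy, and it had the widest range of the 10 genes. Its counts were 82, 12 and 48 in the normal libraries, 801, 129 and 977 at 1 h and 28, 6 and 838 at 4 h. In CPM these were 4.59, 0.876 and 3.55, then 53.6, 8.62 and 60.0, and then 2.32, 0.497 and 55.3. The libraries fell in almost the order of their neuron genes, with the 3 neuron-rich libraries between 53.6 and 60.0 CPM, replicate 2 at 1 h next and the other 5 below 5 CPM. The log2 change was 3.75 ± 1.58 at 1 h, with an interval of 0.12 to 7.38, an unadjusted p of 0.0442 and an adjusted p of 0.294 by edgeR. At 4 h it was 2.68 ± 1.52, with an interval of -0.80 to 6.16 and an adjusted p of 0.509 in the same test. Without replicate 3 of the 4 h group the change at 4 h was -1.10, and without all 3 libraries over 1000 CPM of Dbh it was 1.53 at 1 h and -1.07 at 4 h. The direction of Gdap1 at 4 h turned on that 1 library.

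Of the fusion genes, Mfn1 encodes the mitofusin that tethers facing outer membranes. It was at 102, 113 and 69.8 CPM in normal rats, at 74.7, 83.2 and 71.9 CPM at 1 h and at 79.0, 75.2 and 62.8 CPM at 4 h. Normal replicates 1 and 2 were above all ischemic libraries, and normal replicate 3 was below 5 of the 6. The log2 change was -0.31 ± 0.21 at 1 h, with an interval of -0.78 to 0.16, and -0.40 ± 0.21 at 4 h, with an interval of -0.87 to 0.08 and an edgeR adjusted p of 0.476.

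Mfn2, the mitofusin that also sits at contacts with the endoplasmic reticulum, was counted thinly, with 44 to 116 counts in a library. It was at 3.86, 3.65 and 5.69 CPM in normal rats, 7.76, 4.21 and 6.94 CPM at 1 h and 3.64, 5.89 and 6.80 CPM at 4 h. The 3 highest values were those of the neuron-rich libraries, and the groups overlapped. The intervals of the log2 change were -0.32 to 1.35 at 1 h and -0.53 to 1.14 at 4 h.

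Opa1, the GTPase that joins inner membranes and holds cristae together, was at 65.4, 56.0 and 60.8 CPM in normal rats, 109, 69.5 and 107 CPM at 1 h and 69.9, 60.9 and 104 CPM at 4 h. The 3 neuron-rich libraries stood at 104 to 109 CPM and the other 6 at 56.0 to 69.9 CPM. All 1 h values lay above all normal ones, but replicate 2 did so by a small margin. The means were 60.7 ± 4.71, 95 ± 22.2 and 78.1 ± 22.4 CPM. The log2 change was 0.65 ± 0.25 at 1 h, with an interval of 0.07 to 1.22, an unadjusted p of 0.0327 and an adjusted p of 0.284 by edgeR. At 4 h it was 0.36 ± 0.25, with an interval of -0.21 to 0.94. Without the 3 libraries over 1000 CPM of Dbh it was 0.21 at 1 h and 0.13 at 4 h.

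**Figure D2:**
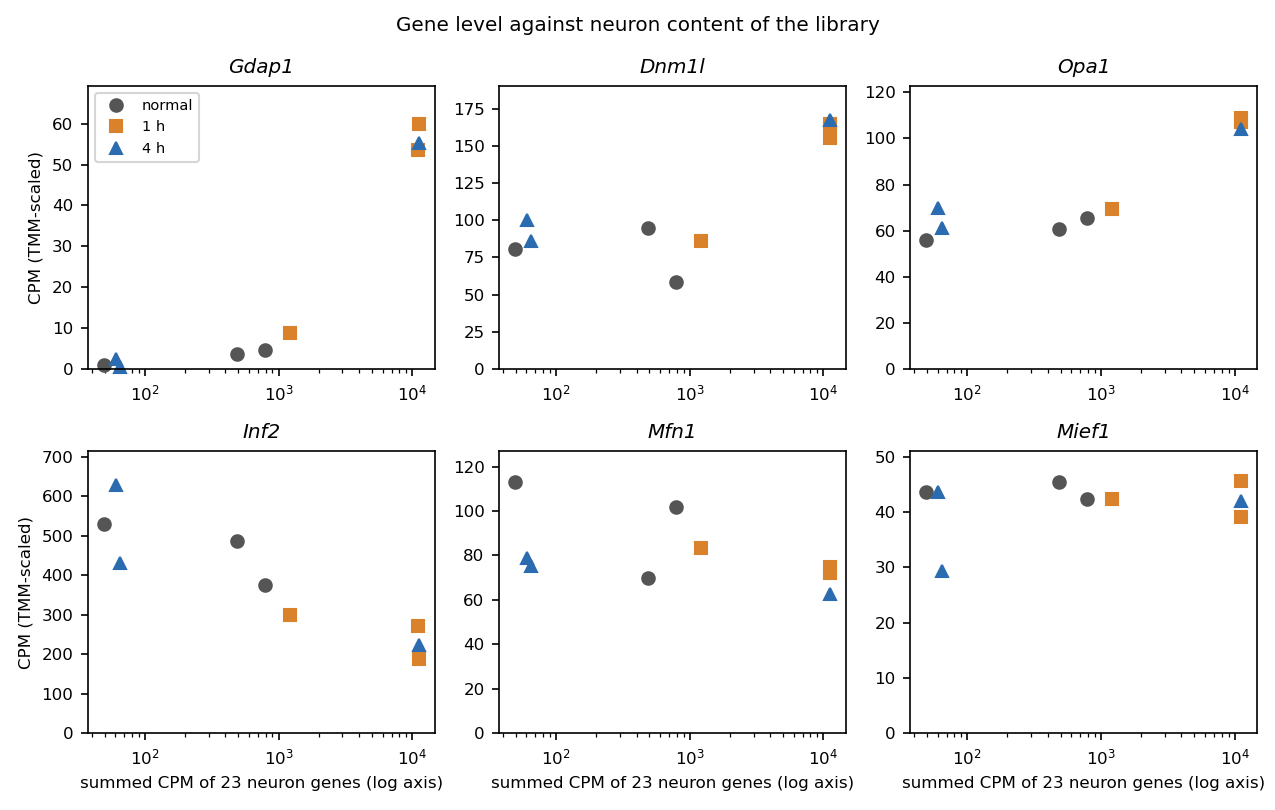
Level of 6 of the genes in CPM (vertical axis) against the summed CPM of 23 sympathetic neuron genes in the same library (horizontal log axis), where each point is 1 library and the symbol gives its group. The 3 libraries at 11100 to 11200 CPM of neuron genes hold the highest Gdap1, Dnm1l and Opa1 and the lowest Inf2, whereas Mief1 lies between 39.1 and 45.6 CPM in all but replicate 2 at 4 h, at 29.4 CPM.

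Whether the level of each gene followed the neuron content of the library was tested within groups, in a fit across all genes with the group and a neuron score, the mean log2 CPM of the 23 neuron genes. None of the 10 genes is in that list. Normal replicates 1 to 3 scored 4.31, -0.96 and 3.63, the libraries at 1 h scored 8.01, 4.82 and 7.99, and those at 4 h scored -0.22, -0.02 and 7.94. Gdap1 was called, with a slope of 0.63 ± 0.08 log2 units per unit of the score (95% interval 0.46 to 0.81, adjusted p = 0.00104 by edgeR's quasi-likelihood test). It was the only one of the 10, and 9.73% of all genes were called with a positive slope and 0.794% with a negative one. The Gdap1 slope stayed between 0.57 and 0.74 when any 1 library was left out, but without replicate 3 at 4 h it was 0.58 and no longer called, with an edgeR adjusted p of 0.162. With the replicate number as a block it was 0.53 and not called, with an edgeR adjusted p of 0.125.

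The slopes of the other genes were much smaller. Opa1 had 0.08 ± 0.03 (interval 0.02 to 0.14, edgeR adjusted p = 0.0815) and Dnm1l had 0.09 ± 0.04 (interval -0.01 to 0.18, adjusted p = 0.207). Inf2 had the lowest slope, -0.13 ± 0.04 (interval -0.22 to -0.04, edgeR adjusted p = 0.0748). Mfn2 had 0.08, Mief1 0.02, Mief2 0.00, Fis1 -0.05, Mfn1 -0.05 and Mff -0.08, all with an adjusted p above the threshold.

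The log score gives the step from 49.3 to 793 CPM of neuron genes more weight than the step from 793 to 11200 CPM. The former runs from -0.96 to 4.31 in the score and the latter from 4.31 to 7.94 or 7.99. The fit was therefore repeated with the summed CPM itself, an alternative added after the data were seen. Per 1000 CPM of neuron genes, Gdap1 had a slope of 0.38 ± 0.07, Dnm1l 0.08 ± 0.02 and Opa1 0.06 ± 0.01. These 3 of 10 were called, with adjusted p-values of 0.017, 0.0408 and 0.0232 by edgeR, against 10.7% of all genes with a positive and 1.25% with a negative slope. Inf2 had -0.08 ± 0.03 with an edgeR adjusted p of 0.115. On this axis 3 libraries lie at 11100 to 11200 CPM and 6 at 49.3 to 1210 CPM. With the group in the fit, the slope rests on differences inside groups. It mostly compares replicates 1 and 3 with replicate 2 at 1 h, and replicate 3 with replicates 1 and 2 at 4 h. The normal libraries span only 49.3 to 793 CPM. The calls depended on single libraries. All 3 remained without normal replicate 1 or normal replicate 3, 2 remained without normal replicate 2, and 1 remained without replicate 1, 2 or 3 at 1 h or replicate 2 at 4 h. None remained without replicate 1 or replicate 3 at 4 h, and without the latter no gene of the whole table was called. Over all genes, 1650 positive and 193 negative slopes were called with all 9 libraries. Without normal replicates 1, 2 and 3 in turn, 2619, 1747 and 1280 genes were called. Without replicates 1, 2 and 3 at 1 h it was 873, 1045 and 780, and without replicates 1 and 2 at 4 h it was 605 and 504.

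**Figure D3:**
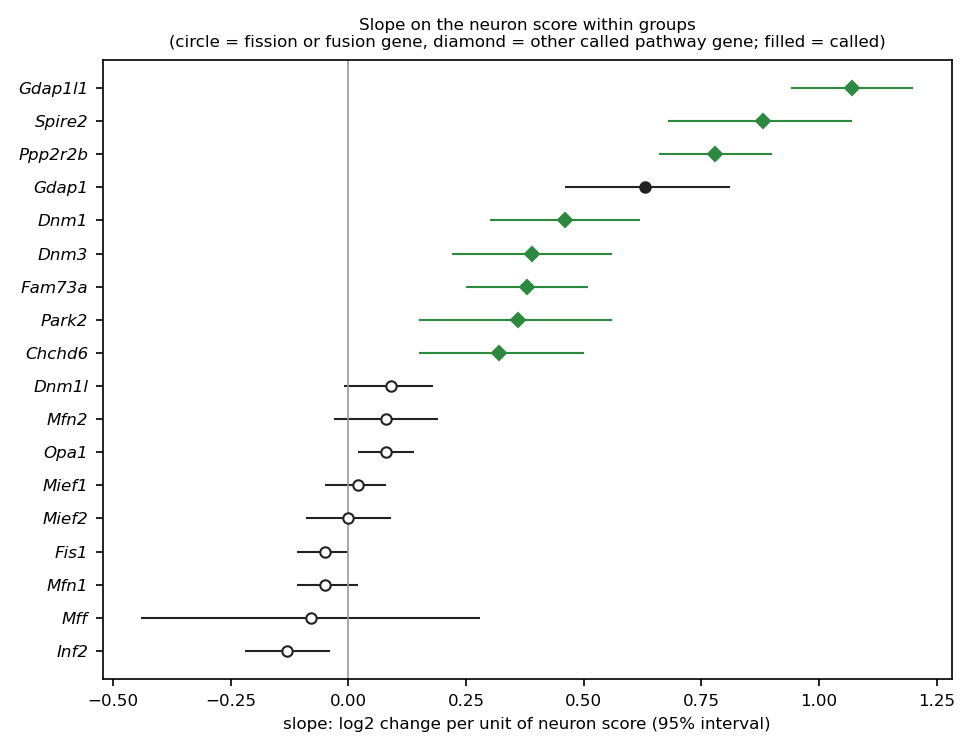
Slope on the neuron score within groups, in log2 units per unit of the score (horizontal axis, point with 95% interval), for the 10 fission and fusion genes (circles) and for the 8 other pathway genes called (diamonds), where filled symbols are called. Gdap1 at 0.63 is the only filled circle, and the other 9 lie between -0.13 and 0.09.

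With the neuron score in the fit, the differences at 1 h became smaller for Gdap1, Dnm1l, Opa1 and Inf2 and larger for Mff. Gdap1 went from 3.75 to 0.83 ± 0.60 (interval -0.54 to 2.21), Dnm1l from 0.80 to 0.34 ± 0.36, Opa1 from 0.65 to 0.25 ± 0.21 and Inf2 from -0.88 to -0.28 ± 0.30, all as log2 changes. Mff went from 2.05 to 2.47 ± 1.32. Among these genes only Gdap1 had a slope past the threshold. With the score, 0 of the 10 genes were called at 1 h by edgeR, 0 had an unadjusted p under 0.05, and 0.0581% and 9.57% of all genes did so. At 4 h Gdap1 was at 0.94 ± 0.53, Dnm1l at 0.50 ± 0.28, Opa1 at 0.31 ± 0.17, Mfn1 at -0.38 ± 0.18 and Inf2 at -0.19 ± 0.25. Again 0 of 10 were called and 0 had an unadjusted p under 0.05, against 0.723% and 16.2% of all genes.

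With the summed neuron CPM in place of the score, Gdap1 was at 0.61 ± 0.77 at 1 h and -0.40 ± 0.78 at 4 h, Dnm1l at 0.14 ± 0.25 and 0.27 ± 0.21, Opa1 at 0.16 ± 0.15 and 0.12 ± 0.13, and Inf2 at -0.27 ± 0.35 and 0.06 ± 0.28. The 1 h group holds 2 of the 3 neuron-rich libraries, so ischemia and neuron content overlap in part in this design. The part of neuron content in each group difference was not tested beyond these fits.

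**Figure D4:**
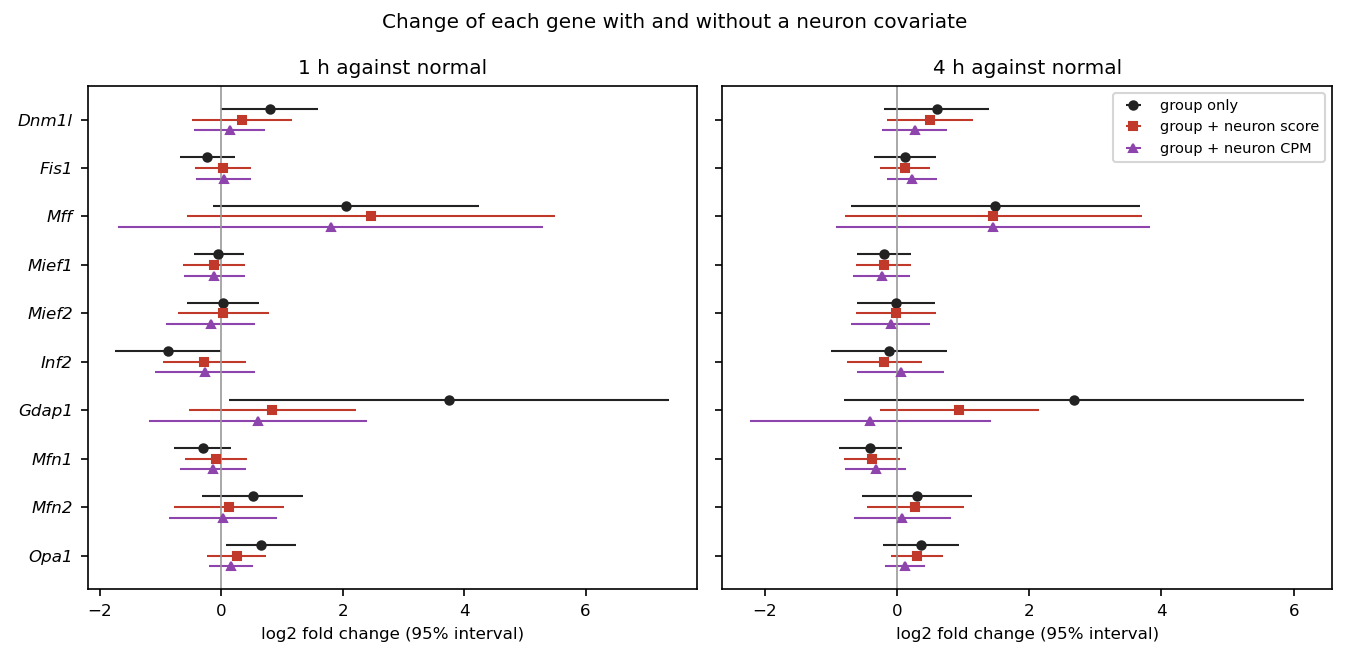
Log2 fold change of each gene against normal rats (horizontal axis, point with 95% interval) at 1 h on the left and at 4 h on the right, from a fit with group alone, with the neuron score added and with the summed neuron CPM added. Gdap1 at 1 h moves from 3.75 to 0.83 and 0.61, while Mief1 and Mief2 stay near 0 in all 3 fits.

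The counts of fission and fusion genes were also set against each other within a library, where scaling between libraries cancels. Such a ratio depends on the lengths of both transcripts, so only its change between libraries can be read, and no test was made. Dnm1l over Fis1, the GTPase over its receptor, was 0.765, 0.853 and 0.932 in the normal libraries, 2.07, 1.00 and 2.32 at 1 h and 0.893, 0.801 and 2.16 at 4 h. The 3 neuron-rich libraries were all above 2 and the others at or below 1. Dnm1l over Mfn1, fission over fusion, was 0.574, 0.714 and 1.36 in the normal libraries, 2.20, 1.04 and 2.17 at 1 h and 1.27, 1.15 and 2.68 at 4 h. This ratio too was highest in the neuron-rich libraries, and normal replicate 3 lay above replicate 2 at 1 h and both other libraries at 4 h. Opa1 over Mfn1 ran from 0.493 to 0.871 in normal rats and was 1.46, 0.835 and 1.48 at 1 h and 0.886, 0.810 and 1.65 at 4 h. Dnm1l over Opa1 was steadier, at 0.896, 1.45 and 1.56 in the normal libraries, 1.51, 1.24 and 1.46 at 1 h and 1.43, 1.41 and 1.63 at 4 h, with normal replicate 1 the lowest. Mief1 over Mief2 ran from 1.81 to 3.37 with the highest value in normal replicate 3.

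Further genes of these pathways were taken from 5 lists of 60 genes, of which 58 were in the table and all 58 were tested. In the group comparisons 0 of 58 were called by edgeR, and the unadjusted p was under 0.05 for 8 at 1 h (6 higher and 2 lower), 3 at 4 h, all higher, and 0 between 4 h and 1 h. Over all genes 16.7%, 12.4% and 2.58% passed that level. DESeq2 called 1 of the 58 at 1 h (Hspa9), where it called 702 of all genes. It called 2 of the 58 at 4 h (Hspa9 and Tomm20), where it called 606 of all genes. The DESeq2 adjusted p was 0.000416 for Hspa9 at 1 h. The median log2 changes of the 58 were 0.18, 0.18 and -0.05. The smallest p-values at 1 h belonged to Hspa9, Akap1 and Tchp. Hspa9, the mitochondrial chaperone that also links to the endoplasmic reticulum through its partners, was at 88.9 to 89.4 CPM in normal rats, 143 to 160 CPM at 1 h and 117 to 157 CPM at 4 h. Its groups at 1 h and at 4 h did not overlap the normal one, in libraries with and without neuron genes alike. The log2 changes of Hspa9 were 0.74 ± 0.16 (edgeR adjusted p = 0.178) and 0.64 ± 0.16 (adjusted p = 0.172), and its slope on the neuron score was 0.02 ± 0.02.

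Akap1, which anchors the kinase that phosphorylates Drp1 at the outer membrane, was at 69.4, 122 and 101 CPM in normal rats and 62.3, 57.1 and 39.9 CPM at 1 h, a log2 change of -0.87 ± 0.29 (edgeR adjusted p = 0.255). With the neuron score in the fit it was -0.43 ± 0.26, and the slope of Akap1 on the score was -0.09 ± 0.03 (edgeR adjusted p = 0.111). Tchp, also called mitostatin, had a log2 change of -0.77 ± 0.28 (edgeR adjusted p = 0.273). At 4 h the smallest p-values belonged to Tomm20, Hspa9 and Vapa. Tomm20, the import receptor of the outer membrane, was at 56.0, 60.3 and 70.3 CPM in normal rats, 83.7, 78.2 and 83.2 CPM at 1 h and 107, 98.5 and 93.0 CPM at 4 h. All 6 ischemic libraries were above all 3 normal ones, with a log2 change at 4 h of 0.68 ± 0.15 (edgeR adjusted p = 0.125). Vapa, a tether of the endoplasmic reticulum, had 0.47 ± 0.14 at 4 h (edgeR adjusted p = 0.239), and its groups did not overlap either. Between 4 h and 1 h the smallest p-values were those of Tchp, Mtfr1l and Stoml2, at 0.62, 0.57 and 0.45 log2 units, each with an edgeR adjusted p of 0.856.

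In the slope on the neuron score, 8 of the 58 pathway genes were called, all positive, where 9.73% of all genes had a positive call. Without replicate 3 at 4 h, 2 of the 58 were called (Gdap1l1 and Ppp2r2b), where 280 of all 15945 genes tested were called. With replicate number as a block 3 were called (these and Spire2), where 296 of all 15482 genes were. With the Schwann list in place of the neuron list 0 of the 58 were called, where 386 of all 15482 genes were. The 8 were 3 of 4 further dynamins and GDAP1 relatives, 1 of 16 genes of OPA1 processing and cristae, 1 of 17 fission regulators, 2 of 7 fusion partners and 1 of 14 genes of tethering and transport. The 4 with the smallest p-values were Gdap1l1, the paralog of Gdap1, with a slope of 1.07 ± 0.06, Ppp2r2b, a phosphatase subunit of neurons that acts on Drp1, with 0.78 ± 0.05, Spire2, an actin nucleator, with 0.88 ± 0.09 and Fam73a, also named Miga1, with 0.38 ± 0.06. Gdap1l1 was at 3.30, 0 and 2.29 CPM in normal rats, 39.7, 3.88 and 37.5 CPM at 1 h and 0.0827, 0.0829 and 30.1 CPM at 4 h. It thus had the same 3 high libraries as Gdap1. The remaining 4 were Dnm1 and Dnm3, dynamins of nerve endings, Chchd6 of the cristae junction and Park2, which encodes Parkin, and these names were read off after their values were seen. Dnm2, the dynamin found in all tissues, had a slope of -0.04 ± 0.02 and was at 78.5 to 126 CPM in the 9 libraries.

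The genes most like Gdap1 over the 9 libraries, by Pearson's r of log2 CPM among 10364 genes averaging at least 5 CPM, were Pirt (r = 0.997), a channel regulator of peripheral neurons, Ache (0.994), which breaks down acetylcholine, Lppr5 (0.992), Rac3 (0.992), a small GTPase of neurons, and Mapk11 (0.99). None of these 5 was in the list of neuron genes behind the score. For Dnm1l they included Got2 (0.992), the mitochondrial aspartate aminotransferase, Sept5 (0.986), a septin of synaptic vesicles, Trim37 (0.985) and Atp6v1d (0.985), a subunit of the proton pump of vesicles. For Inf2 they were Acin1 (0.986), Mical1 (0.986), an enzyme that oxidises actin, Rps6ka4 (0.986), Mrps5 (0.981), a mitochondrial ribosomal protein, and Llgl2 (0.981). The 9 libraries fall into 3 neuron-rich ones and 6 others, so any gene that divides them in this way reaches a high r, and the values only describe these libraries.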

How the data were processed

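RNA of rat superior mesenteric artery was extracted with Trizol per the labels, and libraries were sequenced on an Illumina HiSeq X instrument. The authors deposited 1 table of raw counts per gene symbol, not normalized, whose 9 columns each matched a sample title, with 0 columns left over. HISAT2 is named in the submitters' processing notes. Its version, the genome build, the annotation, the counting program and whether counting used the strand are not given in the sources used here, so reads of overlapping or antisense genes cannot be told apart. The study's methods describe Agilent arrays with a random variance test for these samples, whereas the values are whole-number counts and were tested as counts.

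Total counts were 13114273 to 15504240 per library. Counts carry sampling error, which relative to the count is largest where counts are few. That held for Mff, for Mfn2 and for Gdap1 in libraries such as normal replicate 2 (12 counts) and replicate 2 at 4 h (6 counts). No library was a copy of another (chi-square per degree of freedom at least 29.9 in every pair). The labels name no batch.

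Tests used edgeR 4.0.16 in R 4.3.3 with limma 3.58.1: filterByExpr, TMM scaling, and the quasi-likelihood test (glmQLFit, glmQLFTest) with group as the term over all 9 libraries. P-values were adjusted by Benjamini-Hochberg over 15482 genes, with calls at an adjusted p under 0.05 and a fold over 1.5 (no fold limit for slopes). Standard errors are the absolute log2 change over the root of its F statistic. The common biological coefficient of variation was 51.6%. The neuron score is the mean log2 CPM (prior count 2) of 23 sympathetic neuron genes. DESeq2 1.42.0 was an alternative. The scripts were tested on simulated data. Other alternatives were other scaling, no filter, only the groups compared, each replicate left out, a replicate block and other covariates.

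The named genes were all 10 members, the 3 pathway genes with the smallest p in each comparison where none was called, the 4 called pathway genes with the smallest p per direction of the slope, and the 5 genes most alike in pattern, of which 1 is not reported here. The members, lists and rules were chosen with earlier results of these data known. Micos13 and Mtfr2 of the pathway lists were not matched in the table. Promoter windows came from RefSeq, build GRCr8, and no coordinates were taken from the counts.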

Additional observations from a re-analysis of the deposited data

How the results depend on the processing

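No fission or fusion gene was called in a group comparison under any alternative run, edgeR and DESeq2 included, while the calls of member slopes on neuron content changed with the choices. The slope on the neuron score called 1 member in the chosen design, 2 with library size as the only scaling (Gdap1 and Opa1), 0 with the Schwann list in place of the neuron list, 4 with no group term (where Inf2, Opa1 and Fis1 joined Gdap1) and 3 with neuron CPM (Gdap1, Dnm1l and Opa1). With a replicate block it called 0, with Gdap1 at 0.53 and an edgeR adjusted p of 0.125. Deviations of same-numbered libraries from their group means correlated between -0.651 and 0.66, with replicate 2 positive in all 3 pairs of groups (0.417, 0.282 and 0.623). Libraries with different numbers spanned a like range, from -0.712 to 0.648. No label says that the numbers pair the samples, so they were not treated as pairs. Leaving out 1 library gave 0 to 1 members called, and 0 without replicate 3 at 4 h.

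Over all genes, the count called at 1 h (9) became 702 with DESeq2, 4 with only the groups compared and 5 with the Schwann covariate, and ran from 0 to 11 with 1 library left out. The count at 4 h (14) became 606 with DESeq2, 4 with only the groups compared, 7 with the replicate block, 112 with the neuron score, 45 with Dbh and 33 with neuron CPM as covariate, and ran from 1 to 14. Slopes called (1629) became 296 with the replicate block, 941 with Dbh, 386 with the Schwann list and 3534 with no group term, and ran from 280 to 2040.

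Of the member changes, the direction reversed in 9 of 200 alternatives at 1 h, 14 of 199 at 4 h, 20 of 200 between 4 h and 1 h and 18 of 180 slopes, none of them a called value. At 4 h Mief2 was 0.011 with RLE scaling and with DESeq2, and Fis1 was -0.06 by library size, where the median of all genes was -0.15. The Mief2 slope was 0.042 by library size, 0.00022 without the filter, 0.00082 with the pan-neuronal list and 0.0026 with no group term, where the Mff slope was 0.077. The replicate block gave slopes of 0.10 for Mff and -0.024 for Mief1, and the Schwann list -0.074 for Dnm1l and -0.035 for Mief1. With the neuron score as covariate Fis1 was 0.02 at 1 h, and between 4 h and 1 h Dnm1l was 0.16, Gdap1 0.11, Mfn2 0.16 and Opa1 0.059. With Dbh as covariate Dnm1l was 0.095, Mfn2 0.098 and Opa1 0.02 between 4 h and 1 h. With neuron CPM Fis1 was 0.036 and Mief2 -0.17 at 1 h, Inf2 0.056 and Gdap1 -0.40 at 4 h, Dnm1l 0.13, Mief2 0.077 and Mfn2 0.062 between 4 h and 1 h, and the slopes were 0.027 for Mff and 0.025 for Mief2. Without the libraries over 1000 CPM of Dbh, Mief2 was -0.32 and Mfn2 -0.057 at 1 h, Inf2 0.20 and Gdap1 -1.07 at 4 h, and Dnm1l 0.12, Mff 1.62, Mief2 0.31 and Mfn2 0.18 between 4 h and 1 h.

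With 1 library left out, signs changed within these ranges: at 1 h Mief1 from -0.12 to 0.0071 and Mief2 from -0.16 to 0.18, at 4 h Fis1 from -0.0015 to 0.27, Gdap1 from -1.10 to 3.25, Inf2 from -0.53 to 0.19 and Mief2 from -0.20 to 0.17, between 4 h and 1 h Mff from -1.64 to 0.95, Mfn1 from -0.18 to 0.0094, Mief1 from -0.27 to 0.015 and Mief2 from -0.19 to 0.069, and in the slope Mff from -0.15 to 0.12, Mief1 from -0.0047 to 0.040 and Mief2 from -0.017 to 0.026. The cause of these changes was not tested. Neuron CPM and the libraries left out by Dbh were chosen after seeing the data.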
